A study of Mus musculus and Homo sapiens with 19 samples.

Results

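Bend3 is a mouse brain endothelial line, and the comparison set its 3 libraries against 4 libraries of the mammary tumour lines 4T1 and EMT6.5, to find the genes that separate the cell types in every culture. The members are these 7 of the 19 libraries of the series, taken by the cell line and culture on their labels. They are mRNA libraries of Bend3 grown alone, Bend3 grown with 4T1, Bend3 grown with EMT6.5, 4T1 alone, 4T1 with Bend3, EMT6.5 alone and EMT6.5 with Bend3, and the labels name no PHGDH construct in them. Co-cultured tumour and endothelial cells were parted by flow sorting before their RNA was taken. The sorting marker is not given in the sources used here. Each condition is 1 library, so the 3 libraries of Bend3 and the 2 libraries of each tumour line differ in culture, and the spread that a test uses is the spread between cultures. Bend3 alone stands for endothelium and 2 lines stand for mammary tumour, so every difference below is between these lines. Bend3 cells are immortalised with the polyoma virus middle T antigen, 4T1 cells are from a spontaneous BALB/c mammary carcinoma, and EMT6.5 is a subline of the BALB/c mammary carcinoma EMT6.

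Endothelial cells line blood and lymph vessels. They hold to each other through junctions built on VE-cadherin (Cdh5) and PECAM-1 (Pecam1), read growth factors through the VEGF and angiopoietin receptor kinases, and lay down a basement membrane of collagen IV, laminins and nidogens. ETS factors such as Erg and Fli1, SOXF factors and the Tal1, Lmo2 and Lyl1 group are known to hold the endothelial programme in place. Mammary tumour lines come from an epithelium whose hallmarks are keratins, desmosomes and E-cadherin (Cdh1), and such lines often lose part of these and take up mesenchymal genes.

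Levels are edgeR's CPM, the counts of a gene scaled to a common library size after TMM scaling, and 13092 genes had enough counts to be tested with edgeR. A gene is called when the Benjamini-Hochberg adjusted p over all tested genes is under 0.05 for Bend3 against the average of the 2 tumour lines. It is called separated when, besides, its lowest library in the higher cell type is at least 4 times its highest library in the lower one, after 0.5 CPM is added to both. Of all tested genes 2857 (21.8%) were called higher and 2428 (18.5%) lower in Bend3. Separated genes were fewer, 645 (4.93%) higher and 385 (2.94%) lower, and these shares are the background for every list below. Over all tested genes the median log2 fold change was -0.028, and with library totals in place of TMM it was -0.20. Libraries held 4.27 M to 7.67 M counts in genes. The Bend3 libraries stood closer to each other (chi-square over degrees of freedom 10.9 to 12.3) than the 4T1 pair (57.0) or the EMT6.5 pair (34.0) did. No pair of libraries was a copy.

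**Figure D1:**
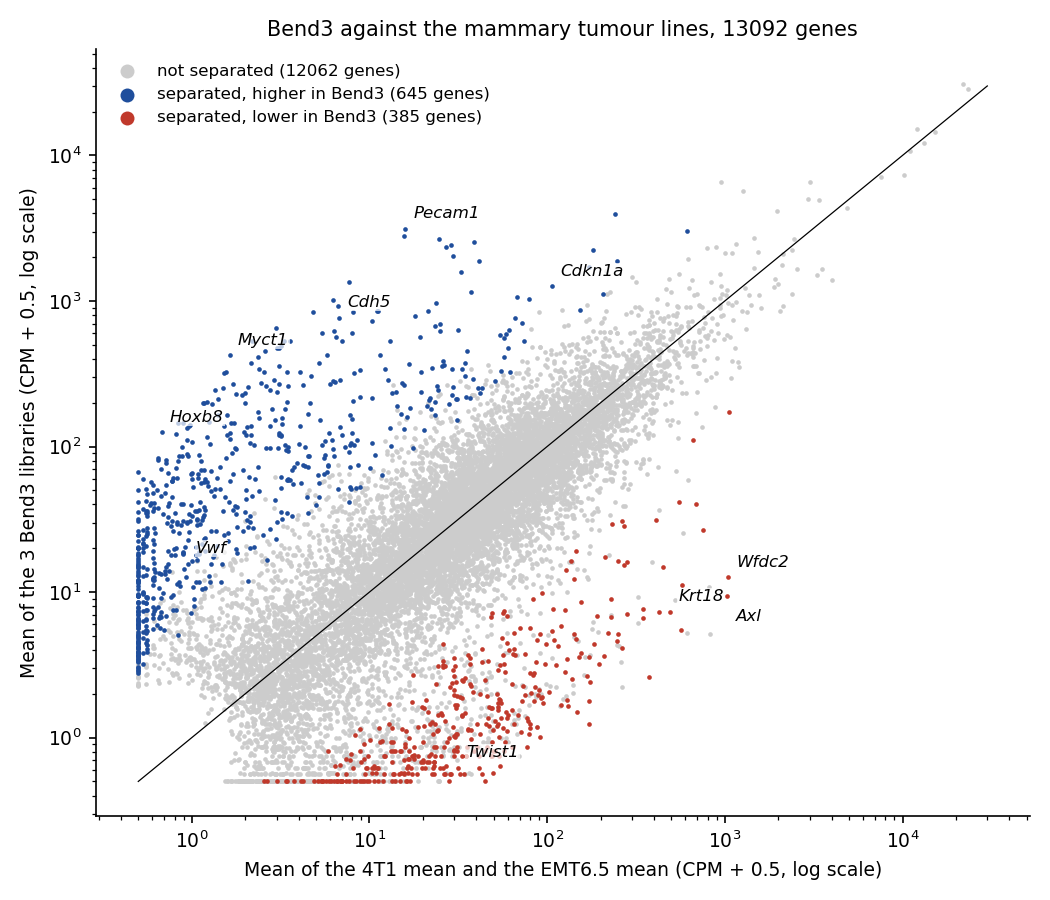
Each point is 1 tested gene, with the mean CPM of the 3 Bend3 libraries on the y axis and the mean of the 4T1 and EMT6.5 means on the x axis, both plus 0.5 and on log scales; the line marks equal levels. Blue points are the 645 genes separated higher and red points the 385 separated lower in Bend3, and the 10 named genes lie on both sides, with Pecam1 at 3126 and Cdh5 at 768 CPM in Bend3.

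The 3 markers that name the line were all higher in Bend3, and they differed widely in level. Cdh5 (GRCm38 chromosome 8, 104101625 to 104144511, plus strand) was at 656, 757 and 892 CPM in Bend3 alone, with 4T1 and with EMT6.5, at 2.38 and 8.54 in 4T1 alone and with Bend3, and at 6.77 and 7.12 in EMT6.5 alone and with Bend3. Every Bend3 library was above every tumour library, with a mean of 768 ± 119 CPM (SD, n = 3) and a log2 fold change of 6.96 (SE 0.38, adjusted p = 4.47e-06 by edgeR). Pecam1 (chromosome 11, 106654217 to 106750628, minus strand) was at 2452, 3228 and 3697 CPM in Bend3, at 7.78 and 30.5 in 4T1 and at 6.15 and 17.3 in EMT6.5, a log2 fold change of 7.72 (SE 0.56, adjusted p = 1.46e-05 by edgeR). In each tumour line both values were higher in the co-cultured library, by little for Cdh5 in EMT6.5. Vwf (chromosome 6, 125546774 to 125686679, plus strand), which encodes the clotting factor stored in endothelial granules, was separated as well but scarce. It was at 7.26, 13.4 and 24.9 CPM in Bend3, 0.648 and 1.15 in 4T1 and 0 in both EMT6.5 libraries, a log2 fold change of 6.70 (SE 0.80, adjusted p = 3.60e-04 by edgeR). Per kb of exon, the mean Bend3 level was 502 CPM for Pecam1, 183 for Cdh5 and 0.947 for Vwf.

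Genes on the endothelial lists mostly ran the same way. The lists include Cdh5, Pecam1 and Vwf, so these markers also enter the counts, medians and sums that follow. Of the 85 genes on the 5 endothelial lists 78 were tested, and 54 were separated higher and none lower, 69.2% against 4.93% of all tested genes. A further 9 were called higher without being separated, 3 were called lower and 12 were not called. Their median log2 fold change was 5.50, against -0.028 over all tested genes. In sum the 54 separated genes reached 28317, 32481 and 34610.2 CPM in the 3 Bend3 libraries. The same sum was 717 and 1068 CPM in 4T1 alone and with Bend3, and 486 and 519 in EMT6.5 alone and with Bend3. The 54 were picked for their gap, so low tumour values in these sums and in the medians below follow from that choice. All 85 list genes summed to 2679 and 3038 CPM in 4T1 and to 3168 and 2941 in EMT6.5, which is 7.72% to 9.12% of their Bend3 mean. The median gene among the 54 stood at 0.533% of its Bend3 mean in 4T1 alone and at 1.79% in 4T1 with Bend3, and at 0.954% and 1.21% in EMT6.5 alone and with Bend3. In the 4T1 library without Bend3, 8 of the 54 were at 0 counts, against 3 in the co-culture. In sorted bulk RNA a few endothelial cells and low endothelial transcripts in the tumour cells cannot be told apart, and their part in the tumour values was not tested.

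**Figure D2:**
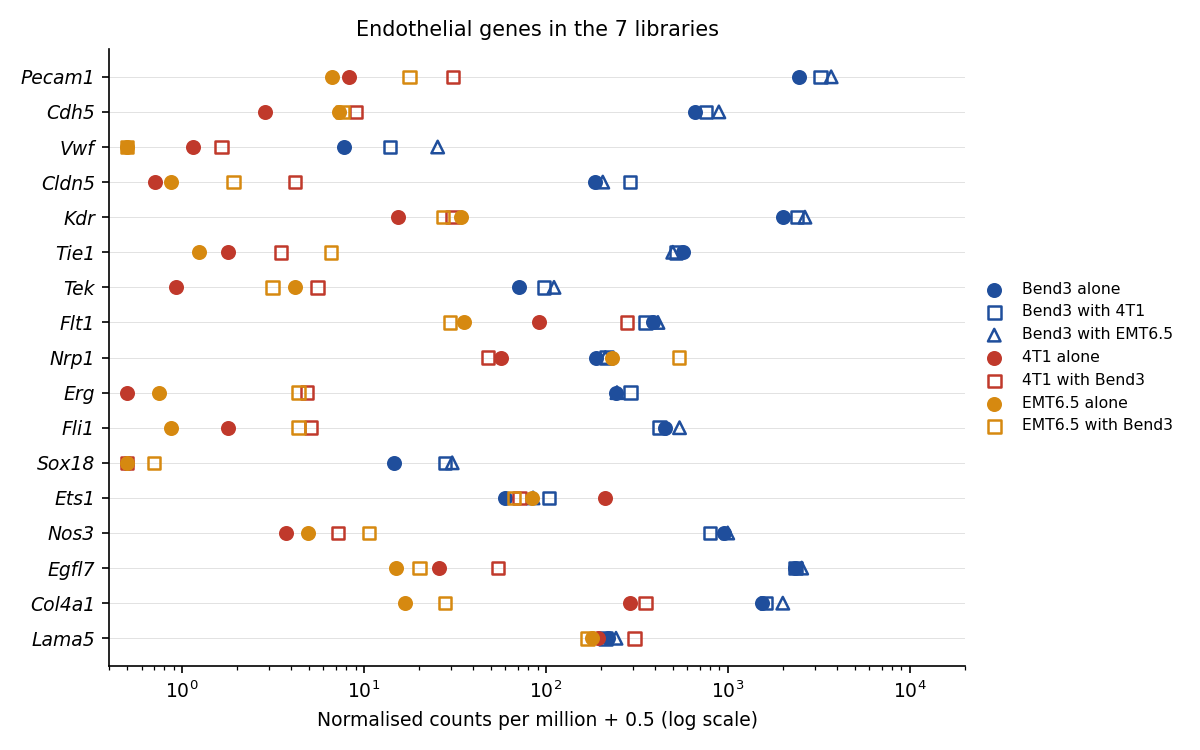
Each row is a gene and each symbol a library, placed by CPM plus 0.5 on a log scale; blue is Bend3, red 4T1 and orange EMT6.5, filled circles are monocultures and open symbols co-cultures. Pecam1, Cdh5, Cldn5, Kdr, Tie1, Tek, Erg, Fli1, Sox18, Nos3 and Egfl7 lie well apart between the cell types, Vwf and Col4a1 less so, and Flt1, Nrp1, Ets1 and Lama5 run close or mix.

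The junction and surface genes all ran one way. All 17 were tested and called higher in Bend3, 15 of them separated, with a median log2 fold change of 5.56. Icam2, a leukocyte adhesion molecule, was at 475, 510.0 and 446 CPM in Bend3, 2.16 and 2.77 in 4T1 and 4.06 and 1.42 in EMT6.5, so its nearest libraries were 97.8 times apart. The stem and endothelial cell sialomucin Cd34 was nearly level across the Bend3 cultures, at 611, 626 and 621 CPM, and at 3.46 and 8.08 in 4T1 and 2.71 and 9.15 in EMT6.5. The tight junction gene Cldn5 was at 186, 290.4 and 205 CPM in Bend3 against 0.216 and 3.69 in 4T1 and 0.369 and 1.42 in EMT6.5. The adhesion gene Esam was 80.3-fold higher in Bend3 than in the mean of the tumour lines. The 2 members that were called but not separated were Podxl, a sialomucin, which 4T1 also held at 51.2 and 70.6 CPM against 206, 228 and 244 in Bend3, and Jam2, a junction adhesion molecule at only 9.75, 12.9 and 15.0 CPM in Bend3.

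Receptors of the vessel wall were mostly separated, 11 of 17 tested, and 14 were called higher, 1 lower and 2 were not called. Calcrl and Ramp2, which together form the adrenomedullin receptor, stood next to each other with gaps of 92.1 and 92.4 times. Calcrl was at 1378, 1347 and 1299 CPM and Ramp2 at 1007, 1044 and 1005 CPM in the 3 Bend3 libraries. The highest tumour value was 13.6 CPM for Calcrl and 10.4 CPM for Ramp2. Tie1, an orphan receptor kinase, was at 568, 518 and 498 CPM in Bend3, 1.30 and 3.00 in 4T1 and 0.738 and 6.10 in EMT6.5. The VEGF receptor Kdr was at 2014, 2397 and 2653 CPM in Bend3, 14.9 and 30.2 in 4T1 and 33.5 and 26.6 in EMT6.5, and 89.5-fold higher than the tumour mean. The phosphatase Ptprb, which restrains Tie2 signals, and the sphingosine receptor S1pr1 were 111-fold and 95.3-fold higher than the tumour mean.

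Of the other VEGF-binding receptors on the list, Flt4 was separated higher and Flt1, Nrp1 and Nrp2 were not separated. Flt1, which binds VEGF with high affinity, was at 387, 351 and 413 CPM in Bend3 and 35.2 and 29.3 in EMT6.5, but at 90.9 and 279 in 4T1 alone and with Bend3. It was called higher (log2 fold change 2.31, SE 0.34, adjusted p = 6.85e-04 by edgeR), with its nearest libraries 1.26 times apart. The neuropilins, co-receptors for VEGF and semaphorins, were not called. Nrp2 was at 387, 336 and 393 CPM in Bend3, 501 and 335 in 4T1 and 333 and 345 in EMT6.5 (adjusted p = 0.962 by edgeR). Nrp1 was at 188, 215 and 212 CPM in Bend3, 55.9 and 47.5 in 4T1 and 232 and 539.6 in EMT6.5 (adjusted p = 0.151 by edgeR). The netrin receptor Unc5b was called lower in Bend3, at 87.8, 79.6 and 65.1 CPM against 222 and 191 in 4T1 and 308 and 251 in EMT6.5. Plxnd1, a semaphorin receptor, and Ednrb, an endothelin receptor, were called higher without separation, and the apelin receptor Aplnr had too few counts to test.

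Transcription factors that hold endothelial identity were higher in Bend3 in 14 of 17 tested cases, 11 of them separated. By the ratio of the nearest libraries the ETS factors Fli1 and Erg came first, at 82.4 and 50.1 times. Fli1 was at 453, 421 and 542 CPM in Bend3, 1.30 and 4.62 in 4T1 and 0.369 and 3.86 in EMT6.5 (log2 fold change 7.64, SE 0.59, adjusted p = 2.14e-05 by edgeR). Erg was at 244, 292 and 245 CPM in Bend3, and its tumour values were 0 and 4.38 in 4T1 and 0.246 and 3.86 in EMT6.5, each time higher in the co-culture. The homeobox factor Hhex, at 38.6, 51.1 and 51.9 CPM in Bend3, had 2 counts in all tumour libraries together, and the SOXF factor Sox18, at 14.1, 27.4 and 30.1 CPM, had 1. The basic helix-loop-helix factors Tal1 (53.5, 62.7 and 60.3 CPM) and Lyl1 (32.0, 22.6 and 20.2 CPM) and their partner Lmo2 (33.3, 75.6 and 41.3 CPM) were all separated, with at most 2.08 CPM in any tumour library.

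The other 6 tested members of that list did not separate. The SOXF factor Sox17 was called higher yet low, at 8.39, 5.33 and 6.24 CPM in Bend3. Gata2, a haematopoietic and endothelial zinc finger factor, was at 37.4, 37.2 and 47.1 CPM in Bend3 but also at 17.1 and 10.4 in EMT6.5, and Elk3, an ETS repressor, was at 448, 510.4 and 599 CPM in Bend3 with up to 209.5 in tumour cells. Ets1 was not called (adjusted p = 0.514 by edgeR): Bend3 held 59.0, 104 and 84.6 CPM, 4T1 211 and 71.1 and EMT6.5 83.9 and 66.3. The forkhead factors Foxc2 and Foxf1 were not called either, with adjusted p of 0.0596 and 0.199 by edgeR. Etv2, Foxf2 and Meox2 had 0 counts in all 7 libraries.

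The ETS family held separated genes in both directions. Of 27 genes 18 were tested. Erg and Fli1 were separated higher, Elf3 and Etv4 separated lower, and 14 were neither. The separated share was 11.1% each way, against 4.93% higher and 2.94% lower of all tested genes. Elf3, an epithelial ETS factor, was at 15.3 and 9.92 CPM in 4T1 and 31.8 and 9.36 in EMT6.5, with 2 counts in all 3 Bend3 libraries. Etv4, of the PEA3 group, was at 2.72, 5.70 and 4.22 CPM in Bend3, 81.0 and 200.3 in 4T1 and 81.6 and 71.2 in EMT6.5 (log2 fold change -4.60, SE 0.42, adjusted p = 4.70e-05 by edgeR). Ets2 was called higher in Bend3, at 1225, 581 and 796 CPM, without separation. Elk1, Elk4, Elf2 and Elf4 were called higher by 0.63 to 0.78 on the log2 scale, calls that did not hold with library totals in place of TMM.

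ETS factors bind short elements around a GGAA core, and promoter windows (up to 250 bases before a RefSeq start site, GRCm38.p6) were searched for CAGGAA and CCGGAA and for 5 other short elements given after the sequences. Printed here, 5′ to 3′ along each gene's strand, are the windows of the separated endothelial genes and keratins with the widest gaps among those with a single entry in the table and off exons, with CAGGAA and CCGGAA, on either strand, in capitals. Myct1 and Cxcl12 are endothelial genes, and Krt18 and Krt14 are the keratins described below.
Myct1, chr10:5593478-5593727, plus strand: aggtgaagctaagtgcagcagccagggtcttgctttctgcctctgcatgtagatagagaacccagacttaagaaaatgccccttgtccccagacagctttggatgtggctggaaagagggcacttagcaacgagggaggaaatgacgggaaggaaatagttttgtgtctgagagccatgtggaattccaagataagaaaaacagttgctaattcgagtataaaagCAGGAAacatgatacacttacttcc
Cxcl12, chr6:117168285-117168534, plus strand: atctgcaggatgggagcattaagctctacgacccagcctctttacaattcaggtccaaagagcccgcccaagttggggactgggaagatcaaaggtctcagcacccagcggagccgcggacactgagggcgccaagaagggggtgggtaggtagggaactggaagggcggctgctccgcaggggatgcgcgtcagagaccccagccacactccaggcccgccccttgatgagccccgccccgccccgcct
Krt18, chr15:102027966-102028179, plus strand: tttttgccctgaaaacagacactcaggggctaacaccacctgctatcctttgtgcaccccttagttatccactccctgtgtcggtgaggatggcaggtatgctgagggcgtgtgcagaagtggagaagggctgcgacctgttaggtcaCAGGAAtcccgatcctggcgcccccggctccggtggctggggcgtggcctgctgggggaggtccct
Krt14, chr11:100206031-100206280, minus strand: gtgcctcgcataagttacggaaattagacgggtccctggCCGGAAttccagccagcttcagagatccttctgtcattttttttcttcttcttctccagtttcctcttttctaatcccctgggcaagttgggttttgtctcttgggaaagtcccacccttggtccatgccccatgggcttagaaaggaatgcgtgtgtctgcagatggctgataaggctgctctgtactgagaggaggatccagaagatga
A single such element lies in each of the windows of Myct1, Krt18 and Krt14, and none in that of Cxcl12. The Krt14 window lies before its RefSeq start site but inside the annotated span of the gene, 100203162 to 100207548. It may therefore not be upstream of every Krt14 transcript. Windows of so few genes cannot show whether these letters part endothelial genes from keratins. Of the windows of genes separated higher in Bend3, 29.7% of 556 held CAGGAA and 9.35% held CCGGAA. The shares were 25.8% and 14.2% of 387 windows of genes separated lower, 22.3% and 22.2% of 12096 windows of all tested genes, and 25.7% and 12% of all 32851 windows in the table. The E-box CACCTG, which ZEB and SNAIL factors bind, was in 15.5% of the windows of genes separated higher, 24.5% of those separated lower, 15.2% of those of tested genes and 17.2% of all. The composite forkhead and ETS element AACAGGAA, which contains CAGGAA, was in 2.34% of the windows of genes separated higher and 1.81% of those separated lower, the E-box CAGATG in 11.9% and 11.6%, the grainyhead element AACCNGTT in 1.44% and 1.55%, and the AP-1 element TGANTCA in 6.29% and 6.98%. Over the windows of all tested genes the shares of these 4 were 1.87%, 9.83%, 1.55% and 4.51%. Over all windows in the table they were 2.25%, 14.4%, 1.79% and 6.75%. No other element contains another, and all were searched on both strands. A match describes letters in a window, not a bound site.

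Genes on the endothelial signalling list were separated in 9 of 11 tested cases. These include the transcription factor Tal1, which was also counted among the transcription factors above. Myct1, a membrane protein of endothelial cells, had the widest gap of any protein-coding gene with at least 50 CPM in every Bend3 library. It was at 459.9, 409 and 397 CPM in Bend3, 0 and 2.54 in 4T1 and 0.985 and 1.02 in EMT6.5, and its log2 fold change was 8.54 (SE 0.55, adjusted p = 7.76e-06 by edgeR). The adaptor She, the nitric oxide synthase Nos3 and the tetraspanin Tspan18 followed, with nearest libraries 92.1, 74.8 and 40.8 times apart. Nos3 was at 954, 797 and 999 CPM in Bend3 and at most 10.2 in tumour cells. Rasip1, which organises the vascular lumen, was 48.4-fold above the tumour mean. Nostrin, which binds the same synthase, went the other way and was called lower: it had 2 counts in all Bend3 libraries and up to 5.91 CPM in EMT6.5. Arap3, a GTPase regulator, was called higher but was also at 61.0 and 84.0 CPM in EMT6.5.

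Secreted and basement membrane genes were split. Of 17 tested, 9 were separated higher, 1 was called lower and 7 were not called. Cxcl12, a chemokine, was at 111, 113 and 139 CPM in Bend3 with 7 counts in the tumour libraries together. Egfl7, an endothelial secreted factor, was at 2331, 2347 and 2546 CPM in Bend3, 25.3 and 54.0 in 4T1 and 14.5 and 19.7 in EMT6.5. Apln, the apelin precursor, averaged 969.5 CPM in Bend3. Of the matrix genes, laminin alpha 4 (Lama4) and nidogen 1 (Nid1) were 125-fold and 82.8-fold higher in Bend3 than in the tumour mean. Collagen IV separated by less, with 4T1 as the nearest line. Col4a1 was at 1539, 1621 and 2005 CPM in Bend3, 289 and 353 in 4T1 and 16.2 and 27.5 in EMT6.5. Laminin alpha 5 (Lama5; adjusted p = 0.715) and perlecan (Hspg2; adjusted p = 0.683) were not called by edgeR, and all 7 libraries held at least 136 CPM of Hspg2. Angpt2, Esm1, Pdgfb, Edn1 and Nid2 were not called either. Igfbp7, a secreted binding protein known from vessel walls, was called lower. It was at 2.95, 5.15 and 8.80 CPM in Bend3, 151 and 31.6 in 4T1 and 679.9 and 441 in EMT6.5.

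Bend3 comes from brain, and genes of the brain barrier ran both ways in it. Of 23 barrier genes 16 were tested: 4 were called higher, 6 lower and 6 were not called. Over all tested genes 21.8% were called higher and 18.5% lower. In each direction 2 of the 16 were separated, 12.5%, against 4.93% higher and 2.94% lower of all tested genes. Cldn5 and the surface antigen Ly6c1 were separated higher. Ly6c1 was at 449, 856 and 722 CPM in Bend3, 12.1 and 32.8 in 4T1 and 17.2 and 29.9 in EMT6.5, and since it has a close paralogue its uniquely aligned counts are uncertain. The lipid transporter Mfsd2a, needed for a tight barrier, had 0 counts in Bend3 and was at 13.4 and 1.62 CPM in 4T1 and 7.63 and 3.05 in EMT6.5, so it was at least 32.7-fold lower in Bend3 if 3 counts in its 3 libraries together are taken as the floor. The large amino acid transporter Slc7a5 was at 16.6, 14.7 and 16.3 CPM in Bend3 and at 517 and 114 in 4T1 and 209 and 155 in EMT6.5, and it too was separated lower. The glucose transporter Slc2a1 was not called (adjusted p = 0.344 by edgeR), with 64.2, 76.0 and 74.8 CPM in Bend3. The barrier transporters Slco1c1, Slc22a8 and Slc38a5 had 0 counts in all 7 libraries, and Lef1, a Wnt effector, had 0 in Bend3.

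Vessel subtype genes gave a mixed picture. For comparison, 21.8% of all tested genes were called higher, 18.5% lower, 4.93% separated higher and 2.94% separated lower. With 2 called higher and 1 lower, the 7 tested arterial markers lie near the called shares. Among 7 tested arterial markers the Notch ligand Dll4 alone was separated, at 55.8, 74.1 and 60.9 CPM in Bend3 against 2.59 and 11.8 in 4T1 and 2.22 and 1.83 in EMT6.5. Efnb2, Gja4, Sema3g and Jag2 were not called, Hey1 was called higher at 3.86, 1.29 and 4.40 CPM, and Gja5 and Bmx were at 0 everywhere. Of 5 tested venous markers 4 were called higher and none separated. Nr2f2, which sets venous fate, was at 366, 473 and 548 CPM in Bend3 and 101 and 203 in EMT6.5, and P-selectin (Selp) was at 44.2, 30.0 and 54.7 CPM in Bend3 but also at 19.8 in 4T1 with Bend3, against 0 in 4T1 alone. Of the lymphatic markers, the hyaluronan receptor Lyve1 and the VEGF-C receptor Flt4 were separated higher. Lyve1 was at 394, 689 and 512 CPM in Bend3 and at most 5.08 in tumour cells. Prox1, the factor that sets lymphatic fate, had 0 counts in Bend3, and podoplanin (Pdpn) was at 142 and 89.9 CPM in EMT6.5 and at most 1.47 in Bend3.

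**Figure D3:**
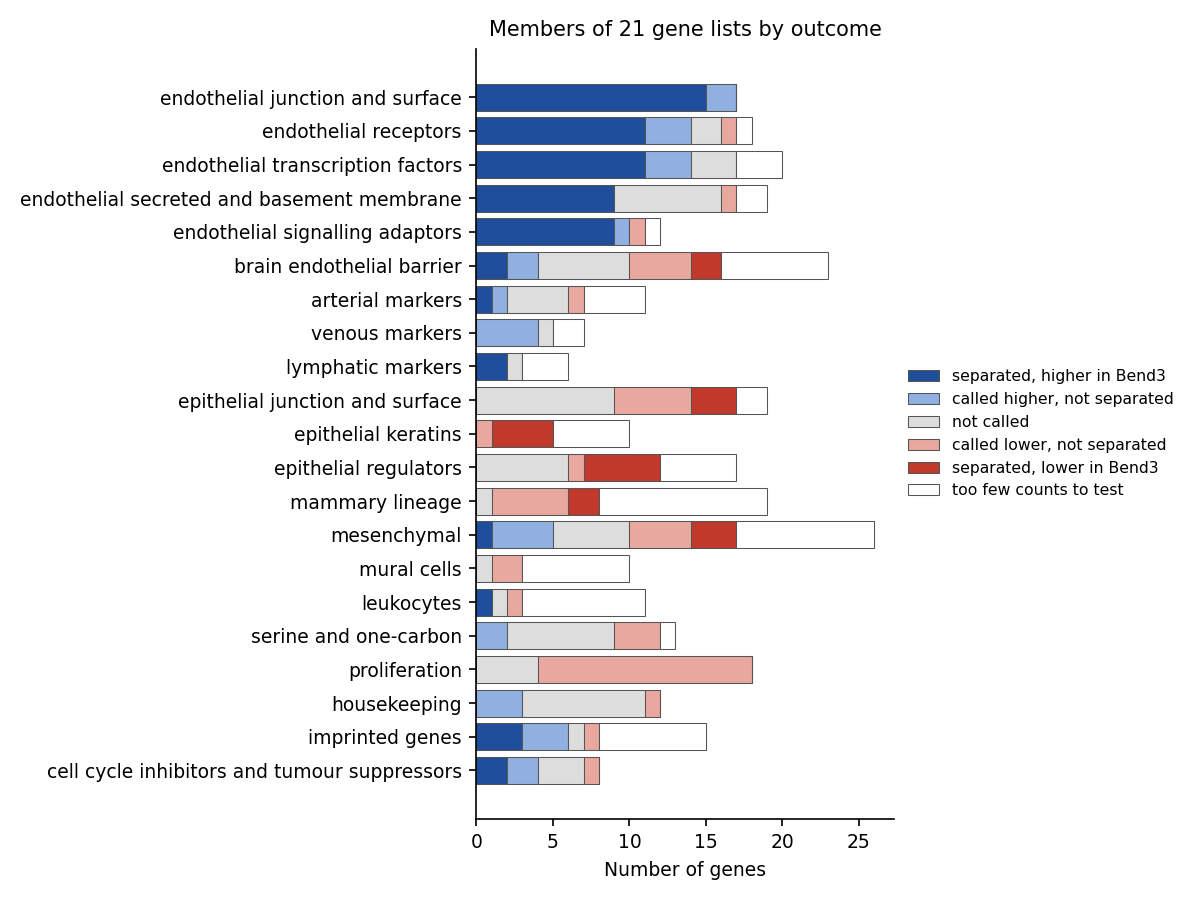
Bars count the members of 21 gene lists by outcome: blue for genes higher in Bend3, red for genes lower, dark where separated and pale where called without separation, grey where not called and white where counts were too few to test. The 5 endothelial lists at the top are mostly dark blue (54 of 85 genes), the barrier list is mixed, and the epithelial lists hold 12 dark red members.

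On the epithelial side, genes held by both tumour lines made up the contrast, as a gene held by 1 of them cannot separate the cell types by its construction. Of 46 genes on the 3 epithelial lists 34 were tested; 12 were separated lower in Bend3 (35.3% against 2.94% of all tested genes), 7 more were called lower, 15 were not called and none was called higher. The keratin list held 4 of the 12. Krt18 was at 0.454, 15.6 and 4.40 CPM in Bend3, 398 and 812 in 4T1 and 384 and 365 in EMT6.5 (log2 fold change -6.09, SE 0.83, adjusted p = 4.71e-04 by edgeR). Its partner Krt8 was at 0.454, 6.25 and 2.20 CPM in Bend3, 59.2 and 177 in 4T1 and 154 and 128 in EMT6.5. Both were higher in Bend3 that had been grown with tumour cells than in Bend3 alone. Krt7 was at 0.454, 17.1 and 1.10 CPM in Bend3, the highest value again being with 4T1. The basal keratin Krt14 had 0 counts in Bend3 and was at 13.0 and 16.2 CPM in 4T1 and 11.9 and 4.88 in EMT6.5, at least 58.6-fold lower in Bend3 with 3 counts in the 3 Bend3 libraries as the floor. Krt19 was a 4T1 keratin, at 32.8 and 70.4 CPM there and 2.46 and 0.407 in EMT6.5, and was called lower without separation.

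The desmosomal genes Dsp and Pkp3 and the anchoring filament gene Lad1 were the junction genes that separated. Dsp, which ties keratins to the desmosome, was at 0.680, 2.02 and 0.734 CPM in Bend3, 69.1 and 78.0 in 4T1 and 196 and 180.2 in EMT6.5. Lad1 was 46.5-fold and Pkp3 53.3-fold lower in Bend3 than in the tumour mean. Plakoglobin (Jup) just missed separation, its nearest libraries being 3.83 times apart. Of the regulators, the separated ones were Elf3, the factor Klf5, the protease Prss8 and its inhibitors Spint1 and Spint2. Klf5 was at 13.6, 16.6 and 13.2 CPM in Bend3, 925 and 413 in 4T1 and 273 and 171 in EMT6.5. Spint2 was at most 1.84 CPM in Bend3 and at least 40.7 in tumour cells.

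E-cadherin and its programme told 4T1 from the other 2 lines, not endothelium from tumour. Cdh1 was at 602 and 445 CPM in 4T1, at 0.123 and 0.814 in EMT6.5 and at 0.227, 4.97 and 0 in Bend3, so EMT6.5 lay within the range of Bend3. Epcam (65.5 and 193 CPM in 4T1), Lsr (164 and 192), Perp (105 and 156), Esrp1 (85.3 and 29.3) and St14 (85.1 and 50.1) had at most 1.02 CPM in either EMT6.5 library. The grainyhead factor Grhl2, which maintains epithelial junctions, was at 23.1 and 28.6 CPM in 4T1 and had 0 counts in all Bend3 and EMT6.5 libraries. Against the average of the tumour lines Cdh1 and Epcam were not called (adjusted p = 0.0847 and 0.0725 by edgeR). Of all tested genes 524 had 0 counts in both libraries of exactly 1 tumour line, and 303 of these, Vwf among them, were called; their fitted fold changes depend on the prior count. No gene with a gap of 4 or more went uncalled. Over the 34 tested epithelial genes the median log2 fold change was -6.27 against 4T1 and -0.695 against EMT6.5.

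**Figure D4:**
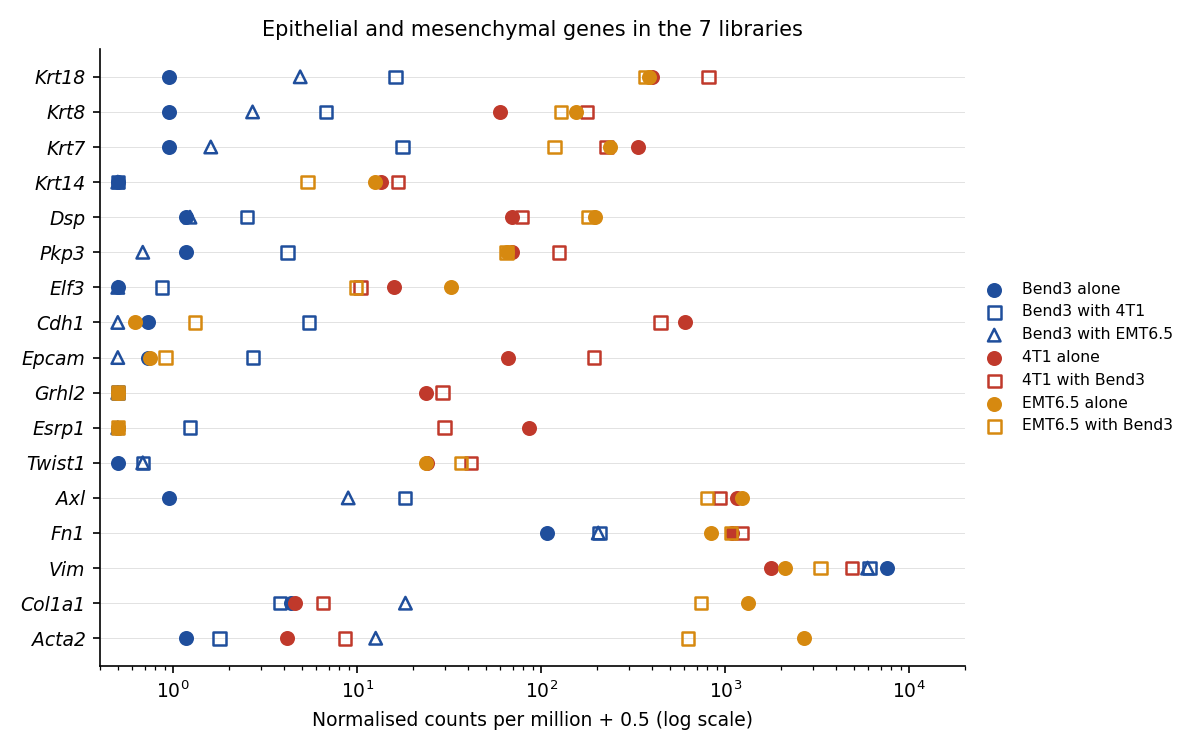
Rows are genes and symbols are libraries placed by CPM plus 0.5 on a log scale, with blue for Bend3, red for 4T1 and orange for EMT6.5, filled circles for monocultures and open symbols for co-cultures. The keratins Krt18, Krt8, Krt7 and Krt14, Dsp, Pkp3, Elf3, Twist1 and Axl part Bend3 from both tumour lines, Cdh1, Epcam, Grhl2 and Esrp1 lie high in 4T1 and low in EMT6.5, and Col1a1 and Acta2 lie high in EMT6.5 and low elsewhere.

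In Bend3 the 12 separated epithelial genes summed to 17.0, 72.1 and 29.5 CPM alone, with 4T1 and with EMT6.5, against 2151 and 2316 in 4T1 alone and with Bend3 and 1691 and 1271 in EMT6.5 alone and with Bend3. The Bend3 sums were 0.916%, 3.88% and 1.59% of the mean of the tumour libraries. Klf5 alone, given above, made up most of the sum in Bend3 without tumour cells and lay within a narrow range across the cultures. Krt14 was the one member at 0 in all 3 Bend3 libraries. The part of sorted tumour cells in these values was not tested. The 12 were picked as separated over all 7 libraries, these co-cultures included, so their low sums in Bend3 follow from that choice. All 46 epithelial list genes summed to 27.2, 116 and 42.4 CPM in Bend3 alone, with 4T1 and with EMT6.5. They summed to 3785 and 4026 CPM in 4T1 and to 1887 and 1380 in EMT6.5.

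Mammary lineage genes were separated lower in 2 of 8 tested cases, 25% against 2.94% of all tested genes. The oestrogen receptor gene Esr1 was at 19.4 and 13.6 CPM in 4T1 and 14.8 and 14.8 in EMT6.5, with 2 counts in all Bend3 libraries. Sox9, a progenitor factor, was at 0.680, 26.1 and 5.14 CPM in Bend3, 540.3 and 1202 in 4T1 and 269 and 289 in EMT6.5, a log2 fold change of -5.51 (SE 0.92, adjusted p = 0.00144 by edgeR). Gata3, the luminal factor, was at 189.9 and 338 CPM in 4T1 but at 5.29 and 14.2 in EMT6.5, within reach of the 10.2, 24.1 and 12.5 CPM of Bend3. The milk protein genes Csn2, Wap and Lalba had 0 counts in all 7 libraries.

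Mesenchymal genes did not fall on one side. Of 17 tested, 5 were called higher and 7 lower in Bend3, against 21.8% and 18.5% of all tested genes. Separated were 1 higher (5.88%, near the 4.93% of all tested genes) and 3 lower (17.6% against 2.94%). The receptor kinase Axl was at 0.454, 17.7 and 8.44 CPM in Bend3, 1161 and 938 in 4T1 and 1239.9 and 798 in EMT6.5, with the co-cultured Bend3 libraries above Bend3 alone. The transition factor Twist1 had 2 counts in Bend3 and was at 23.3 and 41.1 CPM in 4T1 and 23.3 and 36.2 in EMT6.5. Fibronectin (Fn1) was separated lower, at 108, 207 and 204 CPM in Bend3 against 1093 and 1229 and 841 and 1072. N-cadherin (Cdh2) ran the other way: it had 0 counts in all tumour libraries and was at 7.94, 7.91 and 14.3 CPM in Bend3, at least 73.7-fold higher with 3 counts in the 4 tumour libraries as the floor. Vimentin (Vim) was called higher in Bend3, at 7583, 6074 and 5942 CPM, but 4T1 with Bend3 reached 4877. The repressor Zeb1 was at 162, 156 and 218 CPM in Bend3, 0.216 and 5.08 in 4T1 and 39.0 and 10.6 in EMT6.5, just short of separation, and Zeb2 and Snai1 were not called.

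Markers of other cell types bear on what the cultures held. Pericyte and smooth muscle genes were scarce in Bend3, where the 10 mural genes summed to 0.907, 1.84 and 17.4 CPM. They summed to 6.48 and 10.8 CPM in 4T1 and to 2745 and 783 in EMT6.5, where smooth muscle actin (Acta2) was at 2679.5 and 628 CPM, Cspg4 at 40.6 and 68.7 and Pdgfrb at 23.4 and 81.8. The collagen I genes Col1a1 and Col1a2 were likewise EMT6.5 genes, Col1a1 at 1335 and 741 CPM there against 3.86, 3.31 and 17.8 in Bend3. The highest Bend3 values of Acta2 (12.1 CPM), Col1a1 and Col1a2 were in the culture with EMT6.5. Of the leukocyte markers the lysosomal glycoprotein Cd68 was separated higher in Bend3, at 429, 301 and 235 CPM, against 4.54 and 6.92 in 4T1 and 13.8 and 5.69 in EMT6.5. The 11 leukocyte genes summed to 437, 303 and 238 CPM in Bend3, nearly all of it Cd68. The defining leukocyte genes Ptprc, Adgre1, Csf1r, Cd3e and Tyrobp had 0 counts in all 3 Bend3 libraries.

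The families below are set against 21.8% called higher, 18.5% called lower, 4.93% separated higher and 2.94% separated lower of all tested genes. Of 7 tested classical cadherins 4 were separated higher and 3 were not separated. Besides Cdh5 and Cdh2, Cdh13 (T-cadherin, anchored by a lipid) and Cdh26 were separated higher in Bend3. Cdh13 was at 230.0, 217 and 307 CPM in Bend3 and at most 1.62 in tumour cells. Of 10 tested SOX factors Sox7, Sox18, Sox13 and Sox6 were separated higher, Sox9 lower and 5 were not separated; Sox7, Sox18 and Sox9 also stand on lists above. Sox13 was at 121, 115 and 119 CPM in Bend3, with 8.08 CPM in 4T1 with Bend3 as the highest tumour value. Of 9 tested claudins Cldn5 was called higher and 6 were called lower without separation, since 4T1 held Cldn3 and Cldn4 and EMT6.5 held Cldn6 and Cldn9. Cldn9 was at 191 and 44.7 CPM in EMT6.5 and 1.30 and 1.62 in 4T1. Gja1, the most widely expressed connexin, was not called (adjusted p = 0.591 by edgeR).

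Hox genes, which record position along the body axis, parted Bend3 from the tumour lines by cluster. Of 39 genes 21 were tested; 11 were separated higher, 1 was separated lower, and 4 more were called lower, against a background of 4.93% and 2.94%. All 11 lie in the Hoxb and Hoxd clusters: Hoxb3 to Hoxb8, Hoxd3, Hoxd4, Hoxd8, Hoxd9 and Hoxd10. Hoxb8 was at 159.7, 114 and 101 CPM in Bend3 with 4 counts in the tumour libraries together. Hoxd8 was at 204, 194 and 196 CPM in Bend3 and at most 1.38 in tumour cells, and Hoxd4 was at 220.0, 160.0 and 166 against at most 4.97. The 3 Hoxa genes given here were lower in Bend3 or not called. Hoxa10 had 2 counts in Bend3 and was at 20.5 and 36.9 CPM in 4T1 and 21.8 and 27.3 in EMT6.5 (log2 fold change -7.42, SE 0.62, adjusted p = 3.06e-05 by edgeR). Hoxa5 was called lower, at 9.98, 26.9 and 15.2 CPM in Bend3 against 211 and 473 and 86.9 and 115, and Hoxa7 was not called, at 25.6, 22.1 and 19.1 CPM in Bend3. Neighbouring Hox genes share a locus and are not independent cases.

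**Figure D5:**
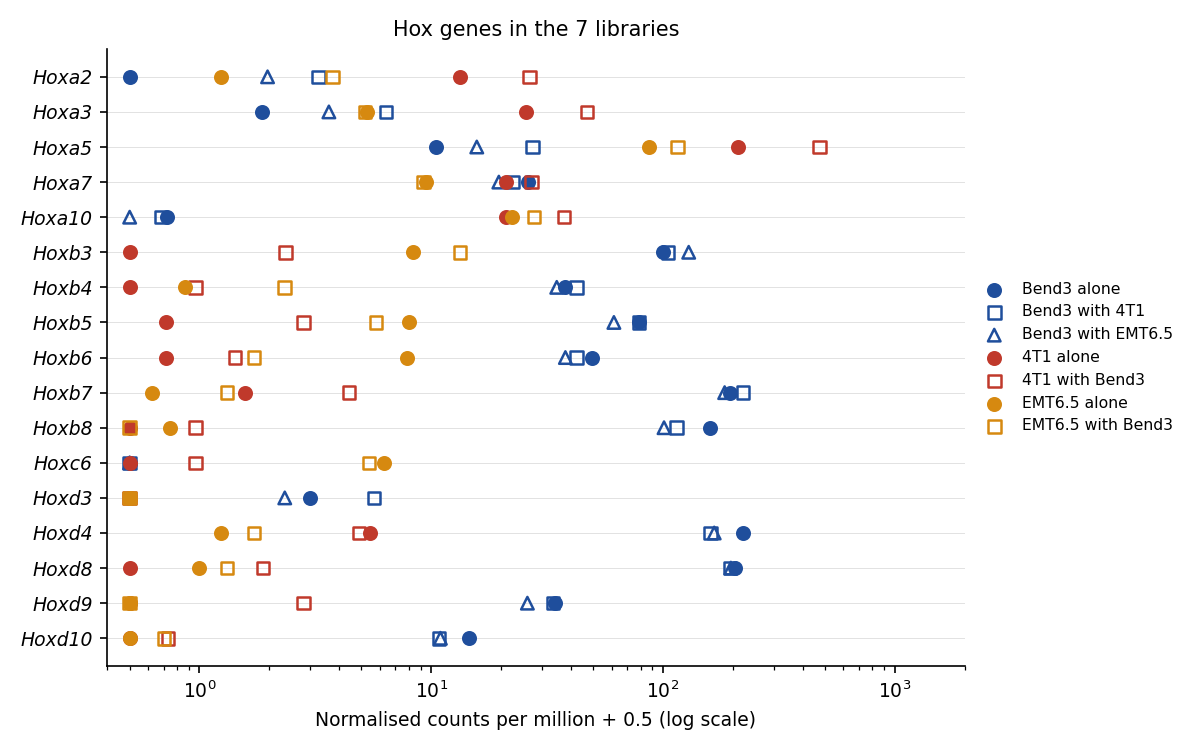
Rows are Hox genes that reached 5 CPM in at least 1 library, and symbols are the 7 libraries placed by CPM plus 0.5 on a log scale, with the colours and shapes of the other plots. The Hoxb and Hoxd rows put all 3 blue Bend3 symbols to the right of the tumour symbols, and the Hoxa5 and Hoxa10 rows put them to the left.

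Imprinted and growth control genes added large differences. Of 8 tested imprinted genes 6 were called higher and 1 lower, against 21.8% and 18.5% of all tested genes. Separated higher were 3 of them (37.5% against 4.93%): Mest, Grb10 and Sgce. Mest was at 1039, 682 and 785 CPM in Bend3, 1.94 and 12.9 in 4T1 and 0.861 and 1.63 in EMT6.5. Grb10, which dampens insulin and growth factor receptors, was 139-fold above the tumour mean, and Sgce had 4 counts in the tumour libraries against 88.0, 76.3 and 77.4 CPM in Bend3. Igf2r, imprinted in mouse, marked 4T1, at 221 and 693 CPM. Of 8 cell cycle inhibitors and tumour suppressors Cdkn1a and Cdkn2b were separated higher, 25% against 4.93% of all tested genes. Cdkn1a was at 1214, 1351 and 1205 CPM in Bend3, 37.2 and 104 in 4T1 and 109.8 and 171 in EMT6.5. Cdkn2b was at 71.2, 87.7 and 82.5 CPM in Bend3 with 3 counts in all tumour libraries. Its neighbour Cdkn2a was called higher but was also at 16.9 and 19.3 CPM in EMT6.5.

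Proliferation genes were lower in Bend3 without parting the lines. Of 18 genes 14 were called lower, none higher and none was separated, with a median log2 fold change of -1.30. The mitotic kinase Plk1 was at 35.8, 48.4 and 27.9 CPM in Bend3, 176 and 186 in 4T1 and 224 and 171 in EMT6.5, the widest gap of the list at 3.51 times. Mki67 was at 76.2, 87.0 and 36.3 CPM in Bend3, lowest with EMT6.5, against 93.8 and 204 and 193 and 139. Of the serine and one-carbon genes, the subject of the series as a whole, 12 were tested and none was separated. Of these, 2 were called higher, 3 lower and 7 were not called. For 12 genes these counts lie near the shares of all tested genes. Those shares were 21.8% called higher, 18.5% called lower, 4.93% separated higher and 2.94% separated lower. Phgdh, which starts serine synthesis, was called higher, at 40.1, 34.9 and 30.3 CPM in Bend3, 14.0 and 4.85 in 4T1 and 6.15 and 2.03 in EMT6.5, a log2 fold change of 2.47 (SE 0.45, adjusted p = 0.00227 by edgeR). Of 12 housekeeping genes 3 were called higher, 1 lower and none separated, against the same shares of all tested genes. Gapdh stood at only 1.08 to 5.90 CPM and Ppia at 2.76 to 6.46. Both genes have many near-identical copies in the genome, which makes their counts uncertain, and 48.2% to 55.3% of all entries counted in these tables were set aside as aligned to several places.

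Among all genes, the widest gaps higher in Bend3, for protein-coding genes with at least 50 CPM in every Bend3 library, went to Myct1, Adcy4, Cxcl12, Tmtc2, Ltc4s, Rtl8b, Hoxb8, Hoxd8, Cdh13, Icam2, Ramp2 and She. Adcy4, an adenylyl cyclase, was at 207, 199.7 and 195 CPM in Bend3 and at most 1.08 in tumour cells. Ltc4s, which makes leukotriene C4, was at 320.0, 425 and 377 CPM in Bend3, 1.30 and 2.54 in 4T1 and 1.11 and 1.63 in EMT6.5. Tmtc2, a mannosyltransferase, had 0 counts in all tumour libraries and was at 54.4, 80.6 and 63.8 CPM in Bend3, at least 486-fold higher with the floor used for Cdh2. The retrotransposon-derived gene Rtl8b, at 701, 367 and 527 CPM in Bend3, has close copies, so its counts are uncertain. Of the 12 genes 5 are on the endothelial lists. For the 645 genes separated higher, the highest Bend3 library was a median of 1.37 times the lowest, and it was under 2 times for 560 of them (86.8%).

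The same ranking for genes lower in Bend3 gave Glrp1, Wfdc2, Hspb8, Ptgfrn, Axl, Irs2, Bmpr1a, Basp1, Dsp, Ppm1l, Slco2a1 and Serinc2. Wfdc2, a secreted protease inhibitor of epithelia, was at 2.72, 16.7 and 17.1 CPM in Bend3, 853 and 933 in 4T1 and 1409 and 986 in EMT6.5. Bmpr1a, a BMP receptor, was at 0, 1.29 and 1.28 CPM in Bend3 and level across tumour libraries, at 86.4 and 72.2 in 4T1 and 71.0 and 75.0 in EMT6.5. Irs2, an insulin receptor substrate, was 147-fold and the small heat shock protein Hspb8 179-fold lower in Bend3 than in the tumour mean. The prostaglandin transporter Slco2a1 was 72.6-fold lower. Separated genes lower in Bend3 spread more among the libraries of the higher side than those on the endothelial side. The highest tumour library was a median of 2.80 times the lowest, and the 2 libraries of 1 line differed by a median of 1.54 times in 4T1 and 1.41 times in EMT6.5. Of these, 29.4% kept their highest tumour library under 2 times the lowest.

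Some separated genes moved with culture on their own side. The interferon-induced gene Ifit3 was at 133, 377 and 83.5 CPM in Bend3 alone, with 4T1 and with EMT6.5, highest with 4T1, and the GTPase gene Gbp4, also highest with 4T1, was at 54.9, 171 and 89.3 CPM. Plvap, which forms the diaphragms of endothelial openings, was at 198, 314 and 526 CPM and highest with EMT6.5. Pcdh17, a protocadherin, and Cd200, a ligand that restrains myeloid cells, were higher in both co-cultures, at 22.7, 81.8 and 73.0 and 43.1, 139 and 131 CPM. Gprin3 was highest alone, at 80.1, 27.0 and 39.8 CPM. On the tumour side Wnt7b, a Wnt ligand, was at 162 and 164 CPM in 4T1 but at 327 and 32.7 in EMT6.5 alone and with Bend3. The protease Htra1 was lower in the co-culture of both lines, at 534 and 88.8 CPM in 4T1 and 702 and 179.6 in EMT6.5. Angptl2, a secreted glycoprotein, was at 28.3 CPM in 4T1 alone and at 291 in 4T1 with Bend3. Podnl1, Itgb5 and Cotl1, the rest of the 6 widest ranges, were higher in EMT6.5 than in 4T1. Each of these culture values is 1 library and has no replicate check.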

How the data were processed

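The libraries were made with a stranded mRNA kit from TRIzol RNA and sequenced as single-end reads, per the labels' protocols. The authors deposited raw gene counts per library, per the submitters' processing notes, which name the tools HISAT2 2.1.0, HTSeq and Trim Galore 0.5.0 and the builds GRCm38 and mm10. The annotation and the strand setting are not given in the sources used here. Gene names and positions came from GENCODE vM21 on GRCm38 (99.8% of 55573 genes matched), and promoter windows from RefSeq (GRCm38.p6; 9427 of the 13092 tested genes had one).

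The 7 libraries were fitted with edgeR 4.0.16 in R 4.3.3: TMM scaling, default count filter by cell line, 1 mean per line, and the quasi-likelihood test of Bend3 against the average of 4T1 and EMT6.5, with 4 residual degrees of freedom. Nothing says the libraries came from replicate cultures of 1 condition, so the p-values rest on how far these libraries differ. In this test the spread of each gene is also moderated by that of the other tested genes. Counts were simulated for 12738 genes with the same mean in all lines, except 99 genes changed by log2 1 and 100 by log2 2. Of these 12.1% and 74.0% were recovered, with 8.51% false calls. In the data 40.4% of tested genes were called, so the simulated shares need not hold there. Floors and counts cover counting error only. Named genes were the 3 markers, up to 6 separated members of each of 22 lists with the exceptions, 7 families, the 12 widest gaps each way from 50 CPM, and the 6 widest ranges within a cell type each way from 20 CPM. The members and lists were chosen with earlier results of these data known. Alternatives were other scalings, filters, models, thresholds and DESeq2 1.42.0, and each library left out. A few genes that the rule names are not reported here. The knockdown and MDA-MB-231 tables were not used.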

Additional observations from a re-analysis of the deposited data

How the results depend on the processing

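With a model of cell type in place of cell line, 1867 genes were called higher. A gap of at least 2 in place of 4 separated 1129 genes higher and 801 lower, and a gap of at least 8 separated 391 and 180. The monocultures alone separated 1021 and 801, and the co-cultures alone separated 618 lower, as fewer libraries enter the gap. With library totals in place of TMM 44.7% of the called genes were higher in Bend3 (2444 of them, with 3025 lower), against 54.1%. Leaving out each library in turn gave 2082 to 3395 genes called higher and 1753 to 2869 called lower, and 653 to 749 separated higher and 410 to 494 lower. The lowest counts of calls came without Bend3 with 4T1 (2082 higher) and without Bend3 with EMT6.5 (1753 lower), the highest without 4T1 with Bend3. Every other planned setting for these 4 counts stayed within 1.5 times.

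Among named genes no direction turned under any setting. Each named separated gene stayed called in every fit that gave it an adjusted p. Calls were lost in 62 of 2232 gene and setting pairs, all of genes that were called without being separated: Elf4, Elk1, Hoxc6, Elf2, Cldn12, Cldn3, Krt19, Elk4, Hoxa3, Cldn4 and Gjc1. The monocultures alone moved the gap of 104 of 149 named genes by more than the spread between libraries of a line, and the co-cultures alone that of 32. A subset of the libraries can only widen a gap or leave it, so these moves cannot show whether separation depends on culture. The labels of these libraries carry no replicate numbers. With each co-culture as a replicate block, chosen after seeing the data, 2526 genes were called higher and 2029 lower, and 645 and 385 were separated; named genes that lost their call were Cldn12, Elk1, Elk4, Elf4, Elf2 and Hoxc6. Low counts limit Vwf, and a fold against a group with 0 counts is a lower bound.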

Other observations

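Chromosome X, looked at after its values were seen, had the largest share of tested genes separated higher in Bend3 among chromosomes with at least 100 tested genes. Of its 397 tested genes 43 (10.8%) were separated higher and 6 (1.51%) lower, against 4.93% and 2.94% of all genes. Gria3, an AMPA receptor subunit, was at 62.1, 60.7 and 55.4 CPM in Bend3 and had no count in 3 of the 4 tumour libraries. Tmem47, a junction protein, was at 154, 139.6 and 138 CPM in Bend3 and at most 1.38 in tumour cells, and F8, the clotting factor VIII gene, at 376, 342 and 263 CPM against at most 4.68. Of the 6 tested Armcx genes, neighbours on that chromosome, Armcx1, Armcx2, Armcx3 and Armcx6 were separated higher; Armcx2 was at 231, 257 and 213 CPM in Bend3 and at most 2.24 in tumour cells.

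The median log2 fold change of single chromosomes also differed. It was 0.45 on chromosome 10 and 0.43 on chromosome 5, where 34.4% and 31.2% of tested genes were called higher, and -0.62 on chromosome 8 and -0.44 on chromosome 17, where 33.4% and 30.3% were called lower.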
